A study of Mus musculus with 2 samples.

Results

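The 44 genes described here encode the secreted Wnt ligands, their Frizzled and Lrp receptors, the secreted Sfrp and Dkk antagonists, and beta-catenin with the TCF/LEF factors that carry the signal to DNA. They were chosen by a rule on names from the 21911 protein-coding genes of GENCODE M21, with earlier results of these data known. The rule took every symbol that is Wnt, Fzd, Sfrp or Dkk followed by a digit, plus Tcf7, Tcf7l1, Tcf7l2, Lef1, Ctnnb1, Lrp5 and Lrp6. This gave 19 ligands, 12 receptors, 8 antagonists and 5 genes of beta-catenin and TCF/LEF.

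DNase-seq marks DNA that the enzyme DNase I can cut in nuclei, which is mostly DNA free of nucleosomes at promoters and enhancers. It was done on whole stomach tissue of B6NCrl mice at postnatal age 0 days, as 2 libraries that the labels number as biological replicates 1 and 2, with no treatment, mutant or second tissue. Both carry one donor entry, nothing says whether they came from separate animals, and sex was not recorded. Replicate 1 had 139654 peaks and replicate 2 had 153178, all 150 bp wide, and 77.6% and 70.7% of those on chromosomes 1 to 19, X and Y lay in the 105543 regions found in both replicates. The files hold no read counts, so the depth is unknown. Each peak has a signal, which is the authors' own value without a stated unit, and it is used here only to rank peaks within a replicate. With 1 group there is no test between conditions, and all comparisons below are descriptions of these libraries.

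Wnt proteins are lipid-modified ligands that bind a Frizzled receptor together with the co-receptor Lrp5 or Lrp6. In the canonical branch this stops the destruction of beta-catenin, which then enters the nucleus and binds Tcf7, Tcf7l1, Tcf7l2 or Lef1 on target genes, while other Wnt proteins such as Wnt5a and Wnt11 mostly act through beta-catenin-independent routes on cell polarity and movement. Sfrp proteins bind Wnt ligands outside the cell and several Dkk proteins block Lrp5 and Lrp6. In the mouse embryo, stomach mesenchyme under the homeobox factor Barx1 is known to dampen Wnt signalling through Sfrp1 and Sfrp2, and in the adult stomach Wnt signals sustain stem cells of the glands.

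A promoter was counted as accessible when a shared region, one made of overlapping peaks of both replicates, reached within 1 kb of an annotated transcription start of the gene. The signal of a peak is also given as a percentile within its own replicate, and the mean percentile is the mean over both replicates. The strongest accessible promoter region of each role is printed here so that the top of each role's range can be read as sequence. They are each role's maximum and not typical of it. They are 5′ to 3′ on the plus strand of mm10, read from the GRCm38.p6 assembly of RefSeq, with the GC box (GGGCGGG or its complement) in capitals. The GC box is a string bound by SP and KLF factors that is common at CpG-rich promoters. Of the 4, 3 hold it, and the region of Sfrp1 holds none.
Wnt11 promoter, chr7:98837996-98838145: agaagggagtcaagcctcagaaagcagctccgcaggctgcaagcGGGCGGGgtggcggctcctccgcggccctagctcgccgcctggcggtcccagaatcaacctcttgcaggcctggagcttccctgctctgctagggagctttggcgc
Fzd5 promoter, chr1:64737836-64737985: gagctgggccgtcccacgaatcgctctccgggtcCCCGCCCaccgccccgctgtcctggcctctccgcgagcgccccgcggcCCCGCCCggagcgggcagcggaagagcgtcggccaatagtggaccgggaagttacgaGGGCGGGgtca
Sfrp1 promoter, chr8:23411356-23411525: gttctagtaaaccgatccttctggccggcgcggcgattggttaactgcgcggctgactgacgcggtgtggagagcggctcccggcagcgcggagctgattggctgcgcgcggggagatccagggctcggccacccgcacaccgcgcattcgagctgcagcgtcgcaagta
Tcf7l2 promoter, chr19:55741736-55741905: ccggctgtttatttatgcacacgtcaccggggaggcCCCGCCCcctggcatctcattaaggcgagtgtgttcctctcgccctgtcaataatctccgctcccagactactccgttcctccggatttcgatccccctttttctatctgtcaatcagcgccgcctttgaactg

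Outside promoters, 3 regions of these loci hold CTTTGAT or its complement, a core string that TCF and LEF factors bind. They are shown because they are the non-promoter places in these loci with this string, given in capitals. Regions with the related string CTTTGTT, which TCF, LEF and SOX factors bind, are counted below and not printed here.
Fzd4 upstream, chr7:89397976-89398125: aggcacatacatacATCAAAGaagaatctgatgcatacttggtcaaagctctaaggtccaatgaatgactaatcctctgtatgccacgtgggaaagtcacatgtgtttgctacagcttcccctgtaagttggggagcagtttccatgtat
Tcf7l2 intron, chr19:55860116-55860285: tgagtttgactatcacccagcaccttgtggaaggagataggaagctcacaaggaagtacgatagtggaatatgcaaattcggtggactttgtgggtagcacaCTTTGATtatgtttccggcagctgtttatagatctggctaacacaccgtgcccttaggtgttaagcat
Tcf7 upstream, chr11:52284336-52284505: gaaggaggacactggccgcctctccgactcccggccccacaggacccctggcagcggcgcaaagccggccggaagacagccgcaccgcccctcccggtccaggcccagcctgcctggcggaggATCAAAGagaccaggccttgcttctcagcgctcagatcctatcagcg

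The strongest region outside promoters in the loci of the ligands, of the receptors and of the nuclear genes is shown as well, a choice made after the values were seen. Capitals mark AGATAA or its complement, which GATA factors bind. Of the 3, the Lrp5 region holds it.
Wnt11 intron, chr7:98849416-98849565: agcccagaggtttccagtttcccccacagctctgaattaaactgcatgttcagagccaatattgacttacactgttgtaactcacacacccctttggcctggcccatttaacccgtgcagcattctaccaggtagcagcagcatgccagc
Lrp5 intron, chr19:3634956-3635105: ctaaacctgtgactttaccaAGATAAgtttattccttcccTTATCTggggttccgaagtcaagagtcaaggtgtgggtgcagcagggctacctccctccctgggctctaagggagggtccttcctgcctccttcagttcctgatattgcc
Tcf7l1 intron, chr6:72650496-72650645: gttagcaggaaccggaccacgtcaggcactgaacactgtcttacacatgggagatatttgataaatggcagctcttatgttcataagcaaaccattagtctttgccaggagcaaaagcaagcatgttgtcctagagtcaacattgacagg

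Of the 44 genes, 29 had an accessible promoter in both replicates, which is 65.9% (95% Wilson interval 51.1 to 78.1%), against 66.4% of all protein-coding genes. The share of the whole set was thus that of any gene, but the roles were spread widely around it. Accessible promoters were found for all 5 genes of beta-catenin and TCF/LEF (95% Wilson interval 56.6 to 100%) and for 11 of 12 receptors (91.7%, 64.6 to 98.5%). They were found for 11 of 19 ligands (57.9%, 36.3 to 76.9%) and for 2 of 8 antagonists (25.0%, 7.15 to 59.1%). These intervals cover counting error only and treat genes as independent draws. The antagonist count rests on the need for a peak in both replicates and on the 1 kb window. In replicate 2 alone 5 of 8 antagonists (62.5%) and 13 of 19 ligands (68.4%) had a promoter peak, against 69.4% of all protein-coding genes, and in replicate 1 alone 3 antagonists (37.5%) and 11 ligands did. With a 2.5 kb window 5 antagonists had a shared region, against 70.0% of all protein-coding genes. No test of the difference between roles was made.

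**Figure D1:**
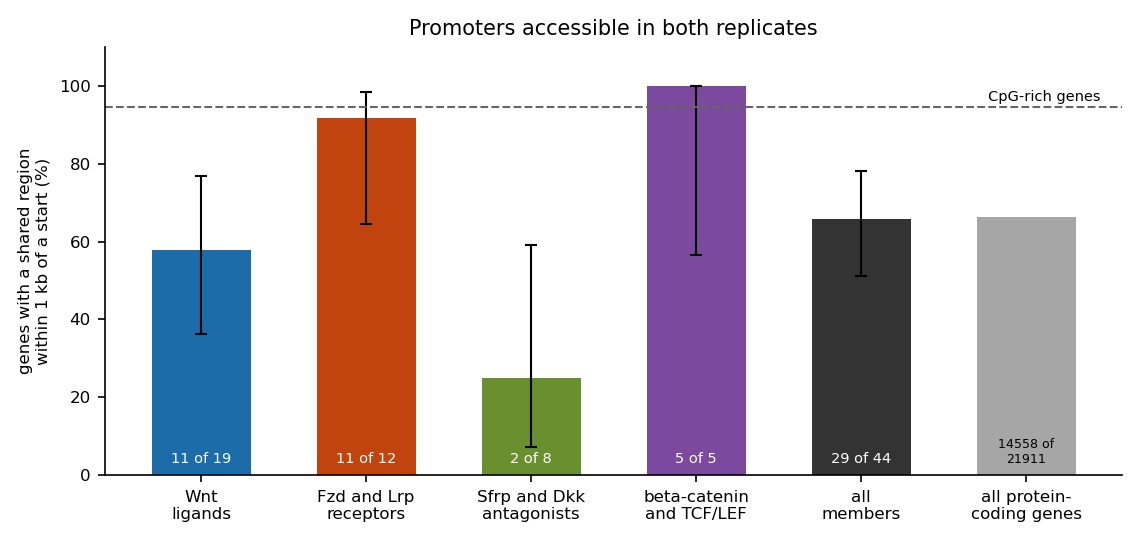
Share of genes with a region shared by both replicates within 1 kb of a start (%), by role, for all 44 genes, and for all protein-coding genes. Error bars are 95% Wilson intervals, and the dashed line at 94.7% is the share among all genes with a CpG-rich promoter. The receptors (91.7%) and nuclear genes (100%) stand above the ligands (57.9%) and antagonists (25.0%).

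Promoter sequence class differs between the roles and goes along with accessibility in the genome at large. A CpG-rich promoter (GC of at least 50% and a CpG observed to expected ratio of at least 0.6 within 500 bp of the 5′ end) was found at 32 of the 44 genes (72.7%), against 44.4% of all protein-coding genes. All 12 receptors had one, as did 13 of 19 ligands, 3 of 8 antagonists and 4 of 5 nuclear genes. Among the 32 CpG-rich genes 25 had an accessible promoter (78.1%), against 94.7% of all CpG-rich protein-coding genes. The 7 that did not were Wnt2, Wnt3, Wnt3a, Wnt6, Fzd10, Sfrp2 and Sfrp5. By role, an accessible promoter was found for 9 of 13 CpG-rich ligands (69.2%), 11 of 12 receptors (91.7%), 1 of 3 antagonists and all 4 nuclear genes. Among the 12 remaining genes 4 had an accessible promoter (33.3%), against 43.9% of all such genes. The class reads the 5′ end alone, and for Ctnnb1, Lef1, Wnt11 and Wnt10b that end is not where the accessible starts lie. Of these, Lef1, Wnt11 and Wnt10b are among the 25 CpG-rich genes with an accessible promoter.

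Promoter signal was ranked higher at most receptors and nuclear genes than at most ligands, with overlapping ranges. A strongest promoter region at a mean percentile of 90 or more was found for 12 of the 44 genes (27.3%), against 38.9% of all protein-coding genes. These 12 were 8 receptors, 3 nuclear genes and 1 ligand. Among genes with an accessible promoter, the median of the strongest region's mean percentile was 93.8 for receptors (range 71.3 to 99.3), 91.8 for nuclear genes (59.8 to 97.7), 61.8 for ligands (47.5 to 92.1) and 60.0 for the 2 antagonists. The median for all protein-coding genes with an accessible promoter was 92.6. In bulk tissue, fewer cells with an open site and weaker access per cell cannot be told apart, so a lower rank can reflect either.

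**Figure D2:**
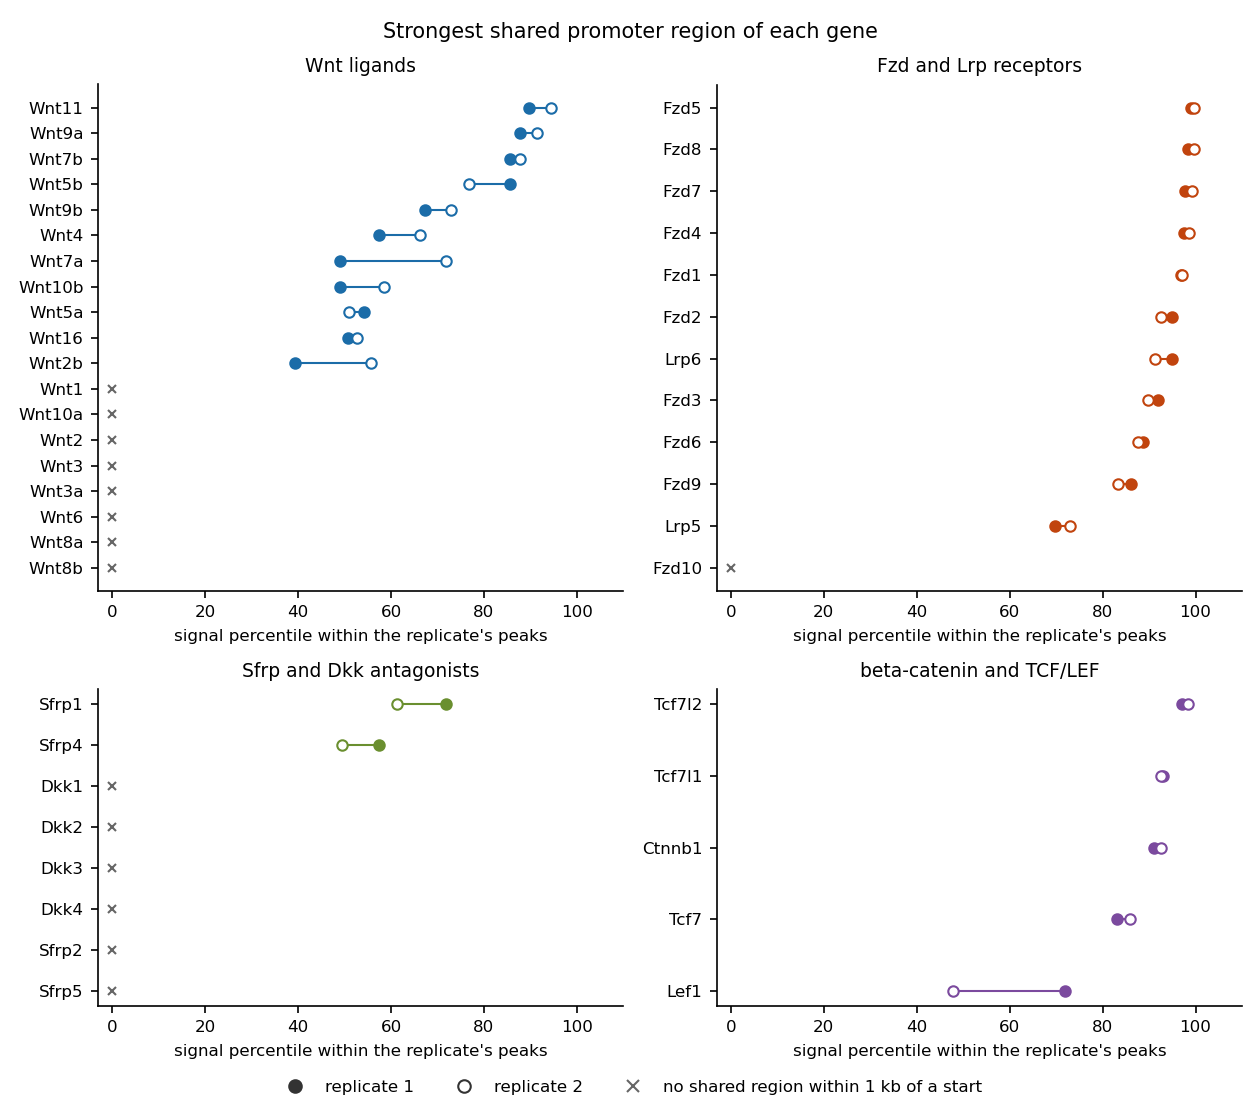
Signal percentile of the strongest shared promoter region of each gene within replicate 1 (filled) and replicate 2 (open), by role. Crosses at 0 mark the 15 genes with no shared region within 1 kb of a start and are not measured values. Of the receptors 8 and of the nuclear genes 3 have a mean percentile of 90 or more, Lrp5 is lower (69.7 and 72.9) and Fzd10 has no shared region, while ligands spread from 39.4 in replicate 1 for Wnt2b up to 94.5 in replicate 2 for Wnt11.

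Frizzled receptors had the strongest promoters of the set. Fzd5, a receptor with a known part in gut epithelium, had a promoter peak signal of 116 in replicate 1 and 126 in replicate 2, at a mean percentile of 99.3, centred 160 bp upstream of the nearest start. Fzd8, a close paralogue of Fzd5, had 111 and 126 (mean percentile 98.9), 32 bp upstream of its start. Fzd7, a receptor known for its part in gut stem cells, had 108 and 123 (98.5), 404 bp upstream of its start. All 3 stood close to the top of both replicates' lists.

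Among the other Frizzled genes, Fzd4 had signals of 107 and 119 (98.0), Fzd1 104 and 112 (96.9) and Fzd2 98 and 99 (93.8). Fzd3, which acts in planar polarity and axon guidance, had 89 and 93 (90.8), Fzd6, a planar polarity receptor, 82 and 89 (88.2), and Fzd9 77 and 82 (84.7). The Fzd4 region also lay within 1 kb of a start of Tmem135, the neighbouring gene, so it cannot be assigned to one of the 2 promoters. The same holds for the regions of Fzd6 with Gm26704, of Wnt7a with Gm30437 and of Lef1 with Gm43352, each of which has a start within 1 kb of them. Fzd10 was the exception among receptors. It had no shared region within 1 kb of its start and no peak there in replicate 1, while replicate 2 had 1 weak peak with a signal of 35 (percentile 17.2). Fzd10 was also the only one of the 44 genes with 0 shared regions in its body and the 10 kb on either side, and its nearest shared region was 11.4 kb upstream. An empty locus is common, since 3951 of all 21911 protein-coding genes had 0 shared regions in this span.

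The co-receptors differed from each other at the promoter. Lrp6 had signals of 98 and 96 (mean percentile 93.1), and Lrp5 had 57 and 70 (71.3), the lowest of the accessible receptor promoters. Outside promoters the Lrp5 locus was rich in strong regions. In introns lay regions with signals of 101 and 108 (95.9), 97 and 107 (95.1) and 90 and 89 (a mean percentile of 90), at 51.5, 44.5 and 54.3 kb downstream of the 5′ end, and these outranked its promoter. At Lrp6, an intronic region 51.4 kb downstream of the 5′ end (102 and 103, 95.2) and a region past the 3′ end (109 and 100, 95.5) ranked above the promoter as well.

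Beta-catenin and the TCF/LEF genes all had accessible promoters, though not all at the 5′ end of the annotated gene. Tcf7l2, the main TCF of gut epithelium, had signals of 105 and 118 (mean percentile 97.7) at its 5′ end and another region at internal starts 154 kb downstream (52 and 61, 62.9). Tcf7l1, known mainly as a repressor, had 92 and 99 (92.8). Ctnnb1, which encodes beta-catenin, had no shared region at its 5′-most start, which belongs to 1 transcript. Its strongest region (87 and 99, 91.8) lay at a cluster of 6 starts from 4184 to 4602 bp downstream. Tcf7 had 72 and 86 (84.5).

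Lef1 stood below the other TCF/LEF genes. Its strongest promoter region had signals of 59 and 51 (percentiles 71.9 and 47.8, mean 59.8). No shared region lay within 1 kb of its 5′-most start, which 3 coding transcripts use, and the region counted for Lef1 lay 346 bp upstream of a start that is 2326 bp downstream of that end. Lef1 is the one of these 5 genes that left the count both when only the 5′ end was read and when only the peaks at or above the median signal were kept.

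Among the ligands, Wnt11 and Wnt9a had the strongest regions that counted as promoters. Wnt11, a ligand of the beta-catenin-independent routes, had 84 and 104 (mean percentile 92.1), not at its 5′ end but 774 bp upstream of a start that lies 3733 bp downstream of it. Wnt9a had 80 and 96 (89.5) in a region whose centre is 1.07 kb past the nearest start and whose edge falls within the 1 kb window, and a second region at the start itself with 70 and 73 (78.8). In the first region only the peak of replicate 1 reached the window. By the region at the start alone, Wnt9a ranks below Wnt7b. Wnt7b, an epithelial ligand in several organs, had 76 and 89 (86.6), in a region centred 748 bp upstream of its start and within an exon of the gene AU022754.

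Wnt5b had 76 and 74 (81.2) at an internal start and weaker values at its 5′ end (36 and 37, 28.2). The remaining accessible ligand promoters were of middle rank. Wnt9b had 55 and 70 (70.1), Wnt4 48 and 64 (61.8), Wnt7a 43 and 69 (60.4), Wnt10b 43 and 58 (53.8), Wnt5a 46 and 53 (52.6), Wnt16 44 and 54 (51.7) and Wnt2b 38 and 56 (47.5). The near edge of the Wnt4 region lay 924 bp upstream of the start, inside the window, while that of the nearest region of Dkk2 lay 1007 bp upstream and so missed the window by a few bases.

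Wnt5a, a ligand needed for gut elongation in the mouse embryo, stood apart within the set in the form of its promoter. Over its 6 annotated starts it had 8 shared promoter regions, more than any other of the 44 genes, yet none was strong. How often other protein-coding genes have this form was not counted. The signals of the 8 Wnt5a regions were 32 to 46 in replicate 1 and 35 to 59 in replicate 2, at mean percentiles of 24.0 to 52.6. Of these 8, 7 lay between 190 bp upstream and 2.14 kb downstream of the 5′ end. The strongest region of the locus lay a little further on, 2.95 kb downstream in an intron, with 59 and 73 (73.9).

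No shared promoter region was found for 8 ligands: Wnt1, Wnt2, Wnt3, Wnt3a, Wnt6, Wnt8a, Wnt8b and Wnt10a. Wnt1 had a promoter peak in replicate 2 alone with a signal of 44 (percentile 35.0), and Wnt10a one with 48 (42.5). The other 6 had no promoter peak in either replicate. Wnt1, Wnt3a and Wnt8a are canonical ligands best known from the early embryo and nervous system, and Wnt3 is a canonical ligand of Paneth cells in the intestine.

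Loci without a shared promoter region still held strong regions in some cases. Wnt6 had no promoter peak, but a region in its intron 1.37 kb downstream of the start had signals of 85 and 110 (mean percentile 93.3). Wnt10a had a region in its coding sequence 11.7 kb downstream of the 5′ end with 98 and 100 (94.0). Wnt3a had 7 shared regions in its locus, 4 of them within the gene, and the strongest had 80 and 85 (86.5). For Wnt8a the nearest shared region, 3.95 kb upstream, had 79 and 86 (86.5). By contrast Wnt3 had 2 shared regions, of 32 and 29 (16.9) and of 31 and 38 (23.8), and Wnt2 had 1, of 33 and 30 (18.7).

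The antagonists had the lowest share of promoters accessible in both replicates and the lowest median number of regions, although in replicate 2 alone 5 of 8 had a promoter peak. Sfrp1 had signals of 59 and 60 (mean percentile 66.6) at its start, and Sfrp4 had 48 and 52 (53.4). No peak of either replicate lay within 1 kb of a start of Sfrp2, Sfrp5 or Dkk4. Sfrp2 had a pair of regions just outside the window, 1.89 kb upstream with 52 and 73 (69.6) and 2.32 kb upstream with 62 and 74 (75.9), and both ranked above the Sfrp1 promoter. Sfrp5 had its nearest region 5.03 kb downstream of its start with 41 and 36 (32.2).

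Of the Dkk genes none was accessible at the promoter in both replicates. Dkk1, the best-known inhibitor of Lrp5 and Lrp6, had a promoter peak in replicate 2 alone with a signal of 44 (percentile 35.0), and its nearest shared region was 5.14 kb upstream (50 and 72, 67.7). Dkk2 had a promoter peak in replicate 2 alone (37, percentile 21.2). Dkk3, a divergent member of the family, had a promoter peak in each replicate, of 32 and 47, but these did not overlap. Dkk4 had its nearest shared region 1.12 kb upstream, with 34 and 34 (23.1).

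The replicates therefore differed on these weak promoters. Replicate 1 alone had a promoter peak at 30 of the 44 genes, against 68.2% of all protein-coding genes, and replicate 2 alone at 35 of the 44 (79.5%), against 69.4%. The genes with a promoter peak in replicate 2 only were Wnt1, Wnt10a, Fzd10, Dkk1 and Dkk2, at percentiles from 17.2 to 42.5. No gene had one in replicate 1 only. The labels name the instruments HiSeq 2500 and NextSeq 500 for replicate 2 and none for replicate 1, and the part of sequencing in this difference was not tested. Over the 29 accessible promoters the percentiles of the 2 replicates had a Spearman correlation of 0.929, across genes that are not independent replicates. The second deposited readout, hotspots, which are broader stretches of raised cutting, was shared at the promoters of 30 of the 44 genes, against 66.8% of all protein-coding genes, with Dkk2 as the added gene.

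**Figure D3:**
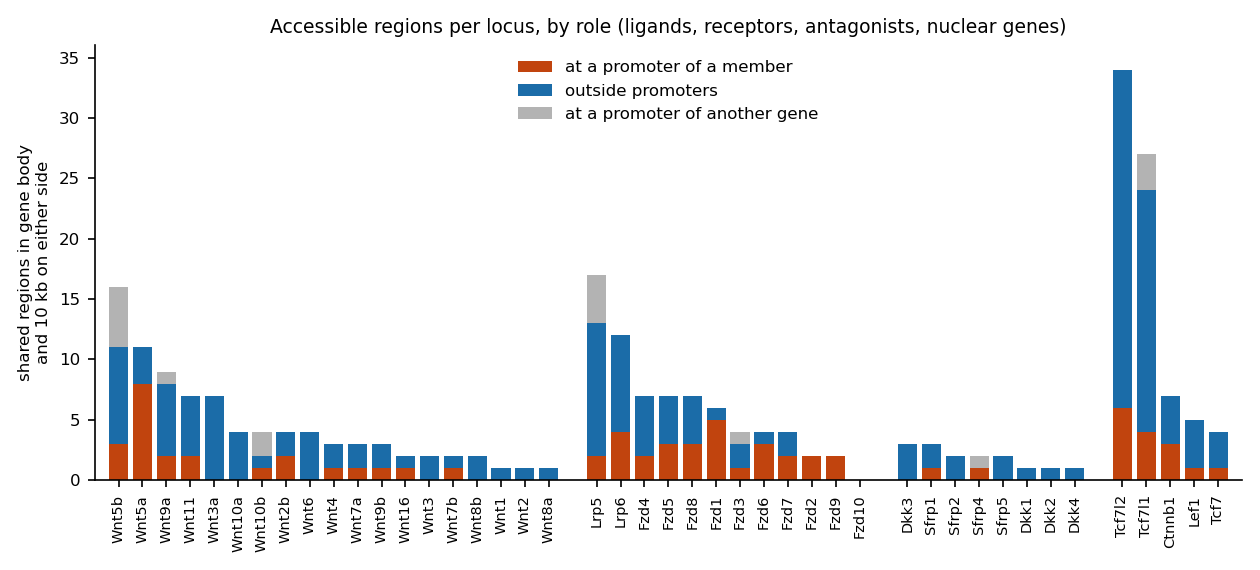
Number of shared regions in the gene body and 10 kb on either side for each of the 44 genes, from left to right ligands, receptors, antagonists and nuclear genes, stacked by whether the region lies at a promoter of the set, outside promoters or at a promoter of another gene. Tcf7l2 (34) and Tcf7l1 (27) stand highest, antagonists have 1 to 3, and Fzd10 has 0.

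Across gene bodies and 10 kb on either side, the 44 loci held 247 distinct shared regions, 3 of them counted for 2 neighbouring genes of the set (Wnt3a with Wnt9a, and Wnt6 with Wnt10a). The median locus had 4 regions, against 4 for all protein-coding genes, and 0.807 regions per 10 kb, against 0.791. By role the medians were 3 for ligands, 5 for receptors, 2 for antagonists (range 1 to 3) and 7 for nuclear genes, and per 10 kb they were 0.71, 1.15, 0.496 and 1.36 in that order. A count of 10 or more regions was found at 6 genes (13.6%), against 12.5% of all protein-coding genes. These were Tcf7l2 with 34, Tcf7l1 with 27, Lrp5 with 17, Wnt5b with 16, Lrp6 with 12 and Wnt5a with 11. At least 2 regions per 10 kb were found at 5 genes (11.4%), against 12.0%, which were Fzd8 (2.70), Wnt5a (2.58), Fzd5 (2.57), Fzd1 (2.48) and Fzd4 (2.43). Neither share stood apart from that of all genes.

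The highest counts were at long loci, and some of the regions lay at promoters of neighbours. Tcf7l2 spans a locus of 212 kb and Tcf7l1 one of 183 kb, which gives 1.61 and 1.48 regions per 10 kb. At Wnt5b 5 of the 16 regions lay at the promoter of Fbxl14, a gene inside the same interval, and at Lrp5 4 of the 17 lay at the promoter of Ppp6r3. Of the 247 regions, 69 lay at promoters of the set, 17 at promoters of other genes only, and 161 outside any promoter, of which 96 were intronic, 16 exonic and 49 intergenic.

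**Figure D4:**
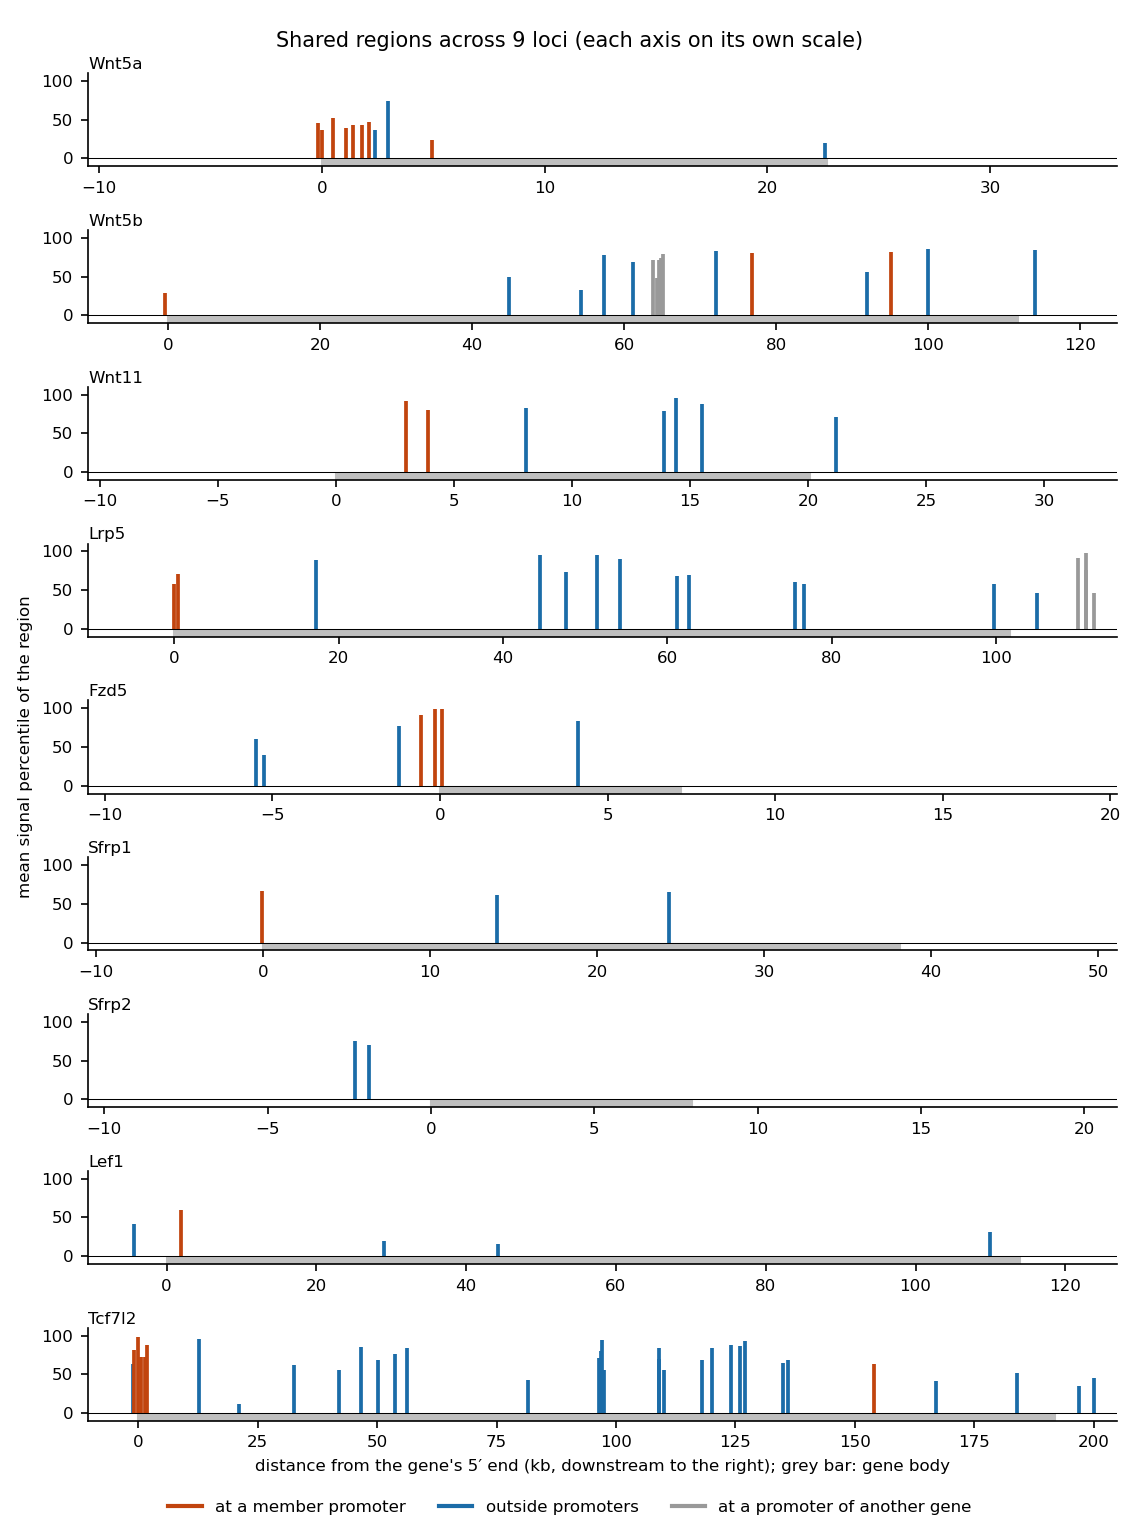
Shared regions along 9 loci, with distance from the 5′ end of the gene in kb on the horizontal axis and the mean signal percentile of each region as the height of its line. The Wnt5a promoter is a row of middling regions (24.0 to 52.6), Fzd5 has a compact strong promoter (up to 99.3), the Sfrp2 pair lies upstream of the start, and of the 34 regions of Tcf7l2, 26 are centred in introns, 4 in exons and 4 between genes.

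The median mean percentile of regions outside promoters was 67.9 in these loci, against 56.6 for all shared regions outside promoters. The latter come from the whole genome and not only from gene bodies and 10 kb on either side. The sets therefore differ in place, and the part of this in the difference was not tested. Regions at promoters of the set had 71.3, against 74.9 for all promoter regions. A mean percentile of 90 or more was reached by 14 of the 161 regions outside promoters (8.70%), against 6.16% of all such regions. Long loci weighed heavily in the share at 90 or more and less in the median. Tcf7l2 held 28 of the 161, Tcf7l1 20 and Lrp5 11, with 8 of the 14 among them. Without these 3 loci, an alternative chosen after seeing the data, the median was 65.4, still above the 56.6 of all shared regions outside promoters. In that alternative 6 of 102 regions (5.88%) reached 90, which is below the share of all such regions. The 14 lay in the loci of 8 genes: Wnt6, Wnt10a, Wnt11, Lrp5, Lrp6, Ctnnb1, Tcf7l1 and Tcf7l2. At Wnt11 an intronic region 14.4 kb downstream of the 5′ end had 95 and 113 (95.7), above its promoter. At Tcf7l1 the highest had 100 and 109 (95.9), and at Tcf7l2 one 12.7 kb downstream of the 5′ end had 99 and 107 (95.4). Upstream of Ctnnb1, 9.88 kb from the 5′ end, lay a region with 94 and 106 (94.5). Which gene such a region acts on was not measured.

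The core string CTTTGAT of TCF and LEF factors was rare in these loci as in the genome. It or its complement was found in 4 of the 247 regions (1.62%, 95% Wilson interval 0.632 to 4.09%), against 2.35% of all shared regions. Among peaks at or above the median signal the order was turned, with 4 of 172 (2.33%), against 2.06%. The 4 of the whole set were the 3 regions printed above, upstream of Fzd4 (75 and 74), in an intron of Tcf7l2 (51 and 72) and upstream of Tcf7 (44 and 53), and a region within the Ctnnb1 promoter window (48 and 75). The Fzd4 region lies in an intron of Tmem135, and the Tcf7 region in an exon of A630014C17Rik. The related string CTTTGTT, which SOX factors also bind, was found in 8 regions (3.24%), against 5.28%. At promoters CTTTGTT was found in 5 of 86 regions (5.81%, 95% Wilson interval 2.51 to 12.9%), against 3.14%, which the interval covers. Outside promoters it was found in 3 of 161 (1.86%, 0.636 to 5.33%), against 6.30%. Both shares rest on few regions.

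The other strings lay on either side of their genome-wide share, most with few matches. At promoters, the GC box was found in 24 of 86 regions (27.9%), against 25.5%, and the ETS string CCGGAAG in 3 (3.49%), against 7.73%, while outside promoters ETS was found in 4 of 161 (2.48%), against 1.51%. The HNF4 string CAAAGTCCA was found in 2 of 86 at promoters (2.33%, 0.64 to 8.09%), against 0.515%, and the FOX string TGTTTAC in 0 of 86 (Wilson upper bound 4.28%), against 2.70%. Outside promoters, the AP-1 string TGANTCA was found in 25 of 161 regions (15.5%), against 16.1%, AGATAA in 14 (8.70%), against 12.4%, and TGTTTAC in 6 (3.73%), against 5.77%. The CTCF core AGNNGGCGC was found in 17 of all 247 (6.88%), against 6.11%, CAAAGTCCA in 4 (1.62%), against 1.03%, and the GRHL string AACCNGTTT in 2 (0.81%), against 1.06%. Both strands were searched, strings may overlap, and a match is a run of letters and not a measured binding site. The median GC of regions outside promoters was 52.0% in these loci, against 48.8% of all such regions. Its part in the shares of strings was not tested.

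**Figure D5:**
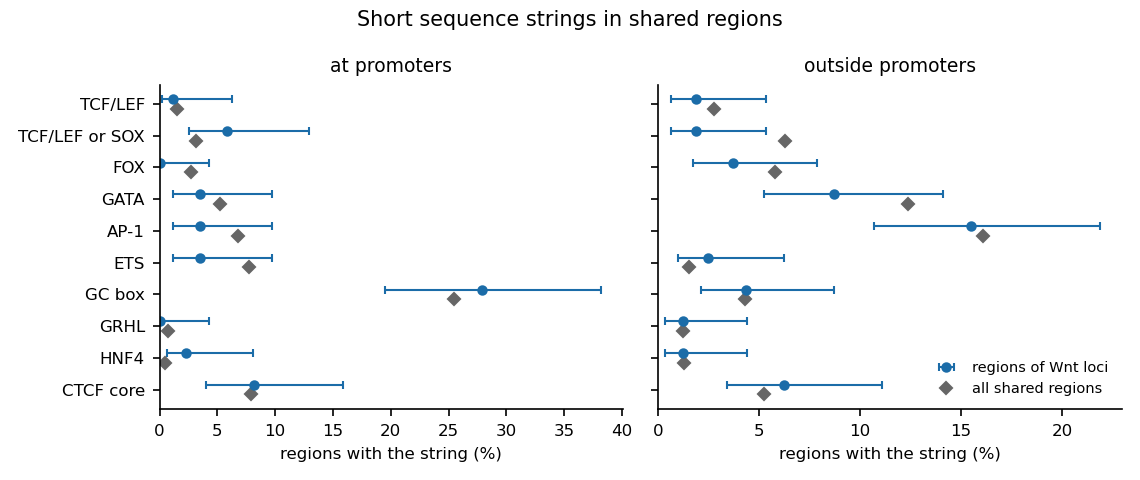
Share of shared regions holding each short string (%), in the regions of the 44 loci (circles, with 95% Wilson intervals) and in all shared regions (diamonds), at promoters (left) and outside them (right). For AP-1 the values are 15.5% outside promoters in these loci and 16.1% in all regions. Outside promoters CTTTGTT (TCF/LEF or SOX) is the one string whose interval, 0.636 to 5.33%, lies below the genome-wide 6.30%. It rests on 3 regions and was singled out among all the strings by its interval. The intervals treat regions as independent draws, although many share a locus.

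The other genes of the pathway, taken from lists of named genes, were accessible more often than the ligands and antagonists. A shared promoter region was found for 69 of 78 (88.5%), against the 66.4% of all protein-coding genes. Promoter class was not taken into account in this comparison. Most of the 78 genes are CpG-rich, a class in which 94.7% of all protein-coding genes had a shared promoter region. All 22 cytoplasmic genes had one, as did all 3 genes of Wnt secretion, among them Wls, the carrier of Wnt proteins, with signals of 90 and 94 and 6 regions. Porcn, which adds the lipid to Wnt proteins, and Notum, which removes it, had 3 regions each. All 8 target genes had one too. Among cytoplasmic genes Dvl2, which relays the receptor signal, had 15 regions (96 and 109 at the promoter), and Gsk3b, the kinase that marks beta-catenin for destruction, had 14 (129 and 131, mean percentile 99.9), as did Apc, a scaffold of the destruction complex (89 and 113).

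The R-spondin axis raises the number of Frizzled receptors on the cell surface. None of the 4 R-spondin ligands Rspo1, Rspo2, Rspo3 and Rspo4 had a shared promoter region, but each had a promoter peak in at least 1 replicate: Rspo1 in replicate 2, Rspo2 and Rspo4 in replicate 1, and Rspo3 in both without a shared region. Their receptors and the ligases they restrain all had one, with Lgr4 at 118 and 130, Lgr5 at 53 and 85, Lgr6 at 51 and 71, Znrf3 at 106 and 115, and Rnf43 at 108 and 116. Rnf43 had 18 and Znrf3 17 regions in their loci. Among other extracellular modulators 7 of 10 had one, with Kremen2, Sost and Cer1 without, and Wif1 and Kremen1 had the most regions with 8 each. Musk was the one of 14 other receptors and polarity genes without, where Celsr1 had 20 regions and Prickle1 17. Tle2 was the one of 12 nuclear partners without, where Ctbp2 had 24 and Bcl9l 19. Among targets Jun had 12 regions, and Cd44, Myc and Sox9 8 each.

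As a check of the tissue, all 9 markers of gastric epithelium had a shared promoter region, as did 5 of 6 of smooth muscle, 3 of 6 of stomach mesenchyme, 2 of 4 of forestomach, 2 of 4 of endothelium and 1 of 4 each of the enteric nervous system and of blood. Of neighbouring organs, 0 of 3 pancreas markers, 1 of 3 liver markers and 2 of 3 intestine markers had one. The share of all protein-coding genes was 66.4%. Intestine was near that share, and only gastric epithelium stood clearly above it. Smooth muscle was higher as well (83.3%), but on too few genes to tell it from that share. All 6 mesenchyme markers are CpG-rich, a class with a share of 94.7%, so these short lists are a weak check. Barx1, the mesenchymal factor upstream of Sfrp1 and Sfrp2 in the embryo, had a promoter peak in replicate 1 but not in replicate 2. Which cell type carries each accessible Wnt gene promoter cannot be told from whole tissue.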

How the data were processed

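DNase-seq peaks and hotspots of 2 libraries of newborn stomach were used. Each list was called on mm10 from the filtered alignments of its own replicate, per the deposited file lists. The peak signal is a whole-number score as deposited by the authors, with no unit or scaling stated. The hotspots, as deposited, carry the −log10 of a q-value. Aligner and caller: not given in the sources used here. How many weak sites could be called depends on depth, which is unknown. Peaks on chromosomes 1 to 19, X and Y were joined into shared regions at an overlap of 1 bp or more, which gave 105543 regions with a median width of 170 bp. Starts and gene bodies were those of GENCODE M21, after 27 repeated symbols were dropped. Percentiles are mid-ranks within a replicate. Sequence was read from GRCm38.p6. Python 3.11.15, pandas 2.3.3 and scipy 1.17.1 were used, and overlap counting was tested on simulated intervals. Every member was accounted for, in most detail the 3 of each role with the most regions, the 3 with the strongest promoters and every gene without a shared promoter region. Of other pathway genes, the 2 with the most regions per list and all without a promoter region were named, and further values of such genes were chosen after they were seen. The members and lists were chosen with earlier results of these data known. Alternatives varied the promoter window, the starts, the locus flank, the overlap, the peak strength and the replicates used.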

Additional observations from a re-analysis of the deposited data

How the results depend on the processing

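Of 81 alternative values, 25 moved past a set tolerance: 1.5 times for a count, 1 SD between the replicates for a median, and the 95% Wilson interval for the share of regions with a string. That SD was 0 for regions per locus and 0.0147 for regions per 10 kb. Almost any change of these medians therefore counted as moved, and all their alternatives did. The other 56 can still differ visibly, as the distinct regions did with 340 in replicate 2 alone. The count of accessible promoters among the 44 genes was 29 and ranged from 23 (250 bp window) to 35 (2.5 kb window), with 62.6% and 70.0% of all protein-coding genes. With 250 bp, 7 ligands and 3 nuclear genes were counted. With 2.5 kb, 5 antagonists were, since Sfrp2, Dkk2 and Dkk4 have regions just outside 1 kb. With the 5′ end alone nuclear genes had 3, since Lef1 and Ctnnb1 have their shared regions at later starts. A single replicate gave 3 to 5 antagonists, because unshared peaks then count. The median number of regions per locus was 4, and 2 in the gene body alone, 9.5 with 50 kb flanks, 3 without promoters of other genes, 2 without any promoter, 2 with peaks at or above the median signal, 3 with 50% overlap and 5 with either replicate alone. Per 10 kb the reported 0.807 became 0.788, 0.77, 0.759, 0.475, 0.588 and 0.752 in the same order, and 1.26 to 1.28 with 1 replicate. The 247 distinct regions became 160, 489 and 161 in gene bodies, with 50 kb flanks and outside promoters. The share of regions with a TCF/LEF core was 4.86% with CTTTGAT or CTTTGTT, against 7.47% of all shared regions, since more strings match. No paired analysis was possible because there is 1 group and no test. Unknown depth limits which weak promoters, such as those of Wnt1, Fzd10 and Dkk1, could be called.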
